A study of Mus musculus with 12 samples.

Results

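Chromatin opening and closing under IL-12 and IL-18 was measured in natural killer (NK) cells that lack Regnase-1, by comparing the 3 ATAC-seq libraries of stimulated knockout cells (KO stimulated) with the 3 of unstimulated knockout cells (KO control), 6 of the 12 libraries of the study. All cells came from mouse spleen. The knockout, named Reg-1ΔNK in the design text, is a deletion of Regnase-1 in NK cells. Wild-type cells, used here only for reference, carry the floxed allele (Reg-1 fl/fl) and were given the same treatments, again with 3 libraries each. The Cre driver, the ages and sexes of the mice and the dose and duration of the cytokines are not given in the sources used here. Whether each library is from its own mouse is not stated in the labels, and p-values here refer to the spread among these libraries, part of which may be technical. In pooled cells, more cells with an open site and a site more open in each cell cannot be told apart.

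Infected and transformed cells are killed by NK cells, a type of innate lymphocyte that also secretes interferon gamma. IL-12 signals through JAK kinases and STAT4, and IL-18 through MyD88 and NF-kB, and together they are a classical trigger of interferon gamma production. Regnase-1, encoded by Zc3h12a, is an endoribonuclease that destroys messenger RNAs of inflammatory genes, so it acts on RNA and not directly on chromatin. ATAC-seq uses a transposase that cuts accessible DNA, and a peak marks a stretch that is cut more often than its surroundings.

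Every library was represented by equally many of its strongest distinct peak intervals, as many as the shortest deposited list holds, which is that of KO stimulated replicate 1. Overlapping intervals of the 12 lists were merged into regions, and the 45082 regions called in at least 2 libraries were used. A region was gained when it was called in 3 of 3 KO stimulated and 0 of 3 KO control libraries, and lost in the opposite case. The "place" of a region in a library is the rank of its strongest peak there, place 1 being the strongest. The deposited KO control lists held 46971 to 53258 intervals and the KO stimulated lists of replicates 2 and 3 held 42543 and 54303 (mean of all 3 stimulated lists 43985 ± 9677 SD, of the control lists 50910 ± 3432 SD). The difference of the means, stimulated minus control, was −6925 (exact two-sided permutation p = 0.4, where 3 libraries against 3 cannot go below 0.1). Equal lengths did not make the lists equally strict: the last interval kept had a deposited −log10 q of 1.31, 4.60 and 13.2 in KO stimulated replicates 1 to 3 and of 8.84 to 13.6 in the KO control libraries. The KO stimulated libraries also resembled one another less, with Jaccard indices (regions shared over regions called in either) of 0.758 to 0.821 against 0.860 to 0.873 within KO control and 0.660 to 0.704 between the groups. NK markers were open, with regions at 9 of 10 genes (all but Nkg7). Of their 48 regions, each KO control library called 39 to 40 and each KO stimulated library 34 to 41. Markers of other blood cells also had regions. B cell markers had 17 at 3 of 7 genes (Pax5, Ebf1 and Blk). Of these 17, the KO control libraries called 6 to 9 and the KO stimulated libraries 6 to 8. T cell markers had 9 at 4 of 9 genes (Cd3d, Cd3e, Cd5 and Cd6), with 7 to 8 called in KO control and 8 to 9 in KO stimulated libraries. Myeloid markers had 11 at 5 of 10 genes (Itgam, Adgre1, Spi1, Cebpa and Cd14), with 9, and 9 to 10, called. Erythroid markers had 4 at 4 of 7 genes, with 2 and 3 called. Defining genes with no region assigned to them were Cd79a, Cd79b and Ms4a1 for B cells, Cd3g, Cd4, Cd8a and Cd8b1 for T cells and Csf1r and Lyz2 for myeloid cells. Each region was given to its nearest gene only, so a gene without one need not be closed. The broadly expressed genes Gapdh, Tbp and Rpl13a had none either. Junb also had none, although a constant region lay over its promoter. The part of other cells in the results was not tested.

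Of the 45082 regions, 2342 (5.19%) were gained, 2097 (4.65%) were lost and 22611 (50.2%) were called in all 6 knockout libraries, referred to below as constant. Without KO stimulated replicate 1 the counts were 3231 gained and 2667 lost, and 3146 and 2844 when the lists were also lengthened to 42520 intervals. The balance depended on how the lists were cut: all deposited peaks gave 1411 gained and 2794 lost regions, and peaks with a −log10 q of at least 10 gave 722 and 2925. Both kinds of changed region lay mostly away from gene ends. Only 4.87% of gained regions (95% Wilson interval 4.07 to 5.82) and 10.5% of lost regions (9.30 to 11.9) lay within 1 kb of either end of a protein-coding gene, against 43.5% of the constant and 27.5% of all regions. About as many gained (49.4%) as lost regions (51.4%) lay inside a gene body. A further 15.8% of gained, 10.5% of lost and 6.09% of constant regions had no protein-coding gene within 50 kb. Median widths were 956.5 bp for gained, 820 bp for lost and 1713 bp for constant regions.

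Many of these calls were changes of degree. Below the intervals kept, the full deposited lists held a weaker peak in at least 1 KO control library for all but 968 of the 2342 gained regions. The 968 regions, 41.3% of the gained set, had no deposited peak, however weak, in any KO control library. Of the lost regions, 856 (40.8%) had none in any KO stimulated library. That second count depends on KO stimulated replicate 1, whose whole list was used: it held a peak in 0 of the 2097 lost regions, replicate 2 held one in 473 and replicate 3 in 1146.

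Calls in wild-type libraries, which the rule for gained and lost regions did not use, moved in the same direction. The 2342 regions gained in knockout cells were called 168, 90 and 98 times in the 3 wild-type control libraries and 1974, 1990 and 2022 times in the 3 wild-type stimulated libraries (exact permutation p = 0.1, the smallest possible). The 2097 lost regions were called 1642, 1864 and 1882 times in the wild-type controls and 339, 416 and 454 times after stimulation (exact permutation p = 0.1, the smallest possible). Neither set overlapped between treatments. Of all 45082 regions, the wild-type control libraries called 32892 to 33914 and the wild-type stimulated libraries 33632 to 34191. In the other direction, the 4245 regions gained in wild-type cells (9.42% of all regions) were called 541, 445 and 570 times in KO control libraries and 2717, 2946 and 3660 times in KO stimulated replicates 1 to 3 (exact permutation p = 0.1). The 3 stimulated values were far apart here, and replicate 3, with the longest deposited list of its group, was the highest. Of all 45082 regions, the KO control libraries called 33318 to 33616 and KO stimulated replicates 1 to 3 called 31101, 32431 and 33601.

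By the strict rule of 3 against 0, 1625 regions were gained in both genotypes, which is 69.4% of the knockout set and 38.3% of the wild-type set. For lost regions the 992 shared ones were 47.3% of the knockout and 34.3% of the wild-type set, where 6.42% of all regions were lost in wild-type cells. Of the 717 regions gained in knockout but not by the rule in wild-type cells, 475 still had more calls in stimulated than in control wild-type libraries, 230 had equal numbers and 12 had more in control. Of the 1105 lost only by the knockout rule, 787 had fewer calls in stimulated wild-type libraries, 278 had equal numbers and 40 had more. Without KO stimulated replicate 3 the shared shares of the knockout sets were 60.0% and 36.4%, and with all deposited peaks 81.1% and 14.1%.

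**Figure D1:**
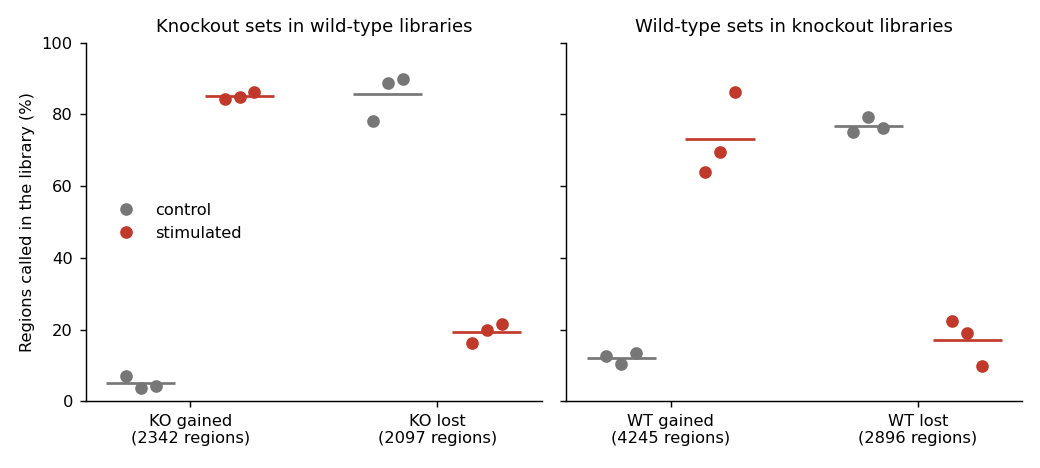
Share of each region set called in each library of the other genotype, in percent. Of all 45082 regions, each library called 31101 to 34191. Points are single libraries (grey control, red stimulated) and lines their means; in the left panel the 2342 gained regions are called in 84.3 to 86.3% by stimulated and in 3.84 to 7.17% by control wild-type libraries, and in the right panel the 3 KO stimulated libraries spread from 64.0 to 86.2% for the wild-type gained set.

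The strongest regions that appeared without any trace in KO control libraries were led by one inside Snd1, which encodes a nuclease-like RNA-binding protein (chr6:28512827-28514024, mm10). It took places 5900.5, 7135.5 and 6320 in the KO stimulated libraries and had no deposited peak in any KO control library. The next with a gene nearby lay inside Rbms1, an RNA-binding protein gene (chr2:60856662-60858608, places 7453.5, 9189.5 and 7759), and inside Diaph3, a formin gene of the actin cytoskeleton (chr14:86757707-86758729, places 10266.5, 8700 and 8519). Others lay 14.1 kb from Ptpn5, a tyrosine phosphatase gene, 25.1 kb from Chst11, a chondroitin sulfotransferase gene, 35.4 kb from Mrpl39 and 6.6 kb from Smpdl3a. 3 of the first 10 had no protein-coding gene within 50 kb. All 10 were called in 3 of 3 wild-type stimulated and 0 of 3 wild-type control libraries. The strongest regions lost without trace lay inside Heg1 (chr16:33693629-33695156, KO control places 12216.5, 14805 and 12291), Ahnak (chr19:9037663-9038606), Zc3h13, Cd200r3 and Clec12b, and 48.4 kb from Cxxc5. Cd200r3 and Clec12b encode immune cell receptors, and Zc3h13 a component of the RNA methylation machinery. These had KO control places of 12194 to 16202, so the strongest lost regions were weaker within their libraries than the strongest gained ones.

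Each region was given to the protein-coding gene closest to it, up to 50 kb away. Of 14320 genes with a region, 1591 (11.1%) had at least 1 gained region, 1627 (11.4%) at least 1 lost region and 268 both. Most of these had just 1, namely 1321 genes for gained and 1415 for lost regions. The number of regions grows with gene length, so the number of all regions of a gene is given beside each count. Lpp, a focal adhesion gene with 38 regions, had the most gained regions, 9, with 1 lost (it was named after its values were seen, since genes with both kinds fell outside the rule). Its calls went from 18, 20 and 18 in KO control to 27, 28 and 32 in KO stimulated libraries. Of the 9, 5 had no deposited peak in KO controls, and all 9 were called in 3 of 3 wild-type stimulated libraries.

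Among genes with gained and no lost regions, Etv6, Sox5, Tnfrsf19 and Ankrd44 had 6 each. Etv6, an ETS-family repressor of blood cells, had 15 regions, of which the KO control libraries called 6, 5 and 4 and the KO stimulated libraries 11, 12 and 13. At Tnfrsf19, a member of the TNF receptor superfamily, calls went from 2 in each KO control library to 9, 8 and 9 of 11 regions, and 5 of its 6 gained regions had no KO control peak. Sox5, an HMG-box factor, went from 11, 12 and 12 to 17, 19 and 20 of 23 regions. Ankrd44 went from 18, 18 and 16 to 18, 23 and 23 of 30, so here KO stimulated replicate 1 did not exceed the controls.

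At Rybp, a Polycomb-associated factor, calls went from 2 in each KO control library to 8, 7 and 8 of its 8 regions, and at Sema6d, a transmembrane semaphorin, from 4 in each to 8 in each of 8. Sema6d had 4 gained regions in knockout and 1 in wild-type cells, where calls went from 4, 4 and 3 to 5, 7 and 7, a difference that was not tested. Tnfsf4 encodes OX40 ligand, a costimulatory cytokine of the TNF family. It had 4 gained regions, none with a peak in any KO control library, and calls of 4, 3 and 4 before and 9, 9 and 8 after stimulation. Atp8b4 (5 gained of 20), Fbxw11 (4 of 13), Gm30679 (4 of 6), Ust (4 of 20) and Med12l (4 of 14) complete the 12 genes.

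Lost regions were spread more thinly. Ablim1, an actin-binding protein gene, and Zmiz1, a transcriptional coregulator gene, had 4 lost regions each and no gained one. Ablim1 had 14 regions called in each KO control library and 9, 10 and 10 of 17 after stimulation, and Zmiz1 went from 24, 25 and 23 to 18, 18 and 20 of 28. Sorl1, Slc39a11, Eya2, Grik4, Cep85l, Golga7b, Stim2, 2900026A02Rik, Pde1c and Spata48 had 3 lost regions each. Golga7b, a gene with 4 regions, went from 4 calls in each KO control library to 0, 1 and 0, and Pde1c, a phosphodiesterase gene with 5, from 5 in each to 0, 2 and 1. Arid1b, a subunit of the SWI/SNF chromatin remodeller, had the most lost regions of all genes, 7 of its 28, with 1 gained. Its calls went from 23, 22 and 24 to 17, 17 and 18, and from 23, 22 and 22 to 19, 20 and 21 in wild-type cells, where it had 4 lost and 3 gained regions. Its 12 constant regions went mostly the other way where they moved. By the limma fit described below, 5 took a stronger and 1 a weaker place after stimulation.

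**Figure D2:**
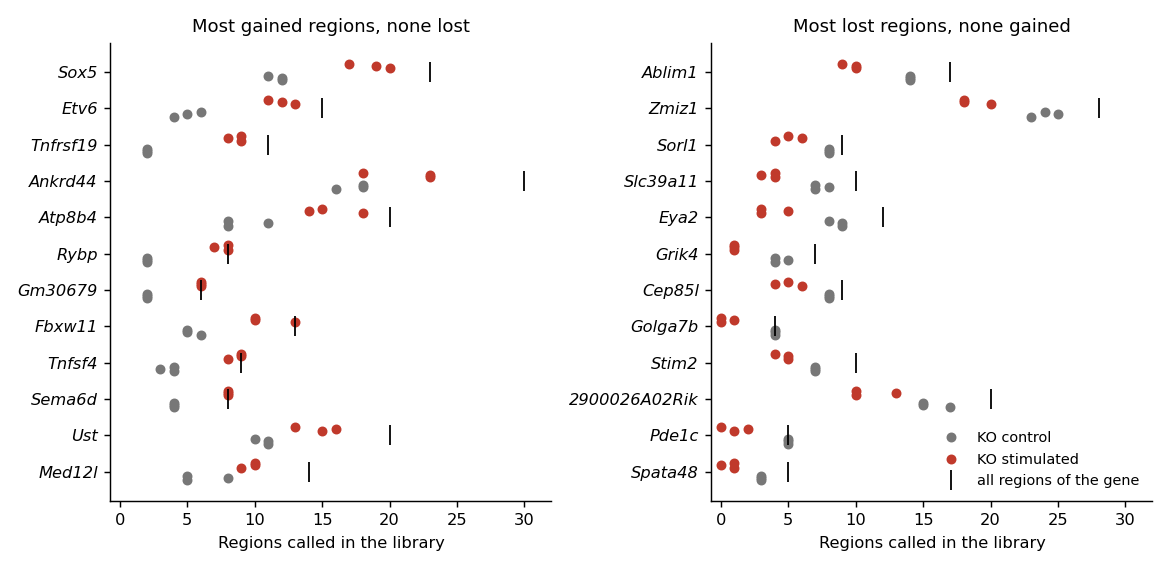
Number of regions called at each gene in each KO control (grey) and KO stimulated (red) library, with a black tick at the number of all regions of that gene. At left are the 12 genes with the most gained and no lost regions and at right the 12 with the most lost and no gained regions; Tnfrsf19 goes from 2 calls in each control to 9, 8 and 9 at left, and Golga7b from 4 in each to 0, 1 and 0 at right.

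The deleted gene, Zc3h12a, had 8 regions and none was gained or lost, with 7, 7 and 8 called in KO control and 8 in each KO stimulated library. The peaks do not show which part of the gene is deleted, so they do not check the genotype. The peak at its upper end was strong in both groups (places 799, 718 and 726, and 177, 504.5 and 618.5, adjusted p = 0.266 by limma). A region 28.7 kb beyond that end rose, from places 18957.5, 20726 and 17339 to 1600.5, 9432.5 and 6691 (log2 difference 2.03 ± 0.55 SE, adjusted p = 0.0351), but it passed in only 2 of the 6 fits that left out 1 library.

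Places were tested for the 22611 constant regions with limma, without pairing the libraries by number, on −log2 of the place. A positive difference thus means a stronger place after stimulation. At a Benjamini-Hochberg adjusted p of 0.05, 2160 (9.55%) rose and 1782 (7.88%) fell, and the median difference of all was −0.09. At an unadjusted p of 0.05 the counts were 3460 and 3861. Leaving out KO stimulated replicate 1 gave 3880 and 4914, and leaving out a KO control library 1014 to 1086 and 577 to 638. When 1 library at a time was left out with the regions held fixed, 883 to 2159 of the 2160 risen regions passed again. Of the 1782 fallen regions 554 to 1781 did. The fewest passed without KO control replicate 2. A change of sign was not possible, since the places of the 2 groups did not overlap in any region that had passed. Of the risen regions 6.11% and of the fallen 16.9% lay over a promoter of a protein-coding gene, against 35.5% of all constant regions. Of the 1704 risen regions that were also constant in wild-type cells, 96.5% rose there too by the same fit, where 20.02% of all regions constant in both genotypes did (in wild-type cells 19.1% of all constant regions rose and 29.0% fell). Of the 1674 fallen ones 92.2% fell, against 27.6%.

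The region that rose most lay 9.8 kb from Gm39469 (chr9:124256269-124258039), from places 3926, 2964.5 and 3043 to 217.5, 50 and 35 (log2 difference 5.50 ± 0.69 SE, adjusted p = 0.00165). Next was a region 10.8 kb from Furin, which encodes a protease that matures many secreted proteins, with places of 10593.5, 10476.5 and 11558.5 before and 243, 570.5 and 288 after stimulation (4.99 ± 0.39 SE, adjusted p = 0.000953). Kdm6b, the gene of a histone H3K27 demethylase, had a region inside it that went from 3457.5, 3862 and 4945.5 to 144.5, 312.5 and 430, and a region over the end of Nkain1 from 26278.5, 29369 and 29604.5 to 1274.5, 3383.5 and 1851. Regions 9.0 kb from Ktn1 and 31.2 kb from Thy1, a surface glycoprotein gene, and 2 with no gene within 50 kb complete the 8. All 8 passed in each of the 6 fits that left out 1 library. A region inside Rin3, a regulator of endocytosis, went from 903, 1272 and 1540 to 12629, 8367 and 8826 (−3.01 ± 0.31 SE, adjusted p = 0.00101) and one inside Ttbk1 from 1376.5, 1555.5 and 993 to 7453.5, 7317.5 and 7759. The region over the end of Pip4p1 and 1 with no gene within 50 kb also fell, and these 4 passed in each of the 6 fits. The regions over the ends of Iba57, Golga5 and Klf10 and one 13.6 kb from Zfp395 fell too, but KO stimulated replicate 1 lay far below the other 2 stimulated libraries there, at place 4740.5 against 429.5 and 951 for Iba57. They passed in 2 or 3 of the 6 fits that left out 1 library.

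**Figure D3:**
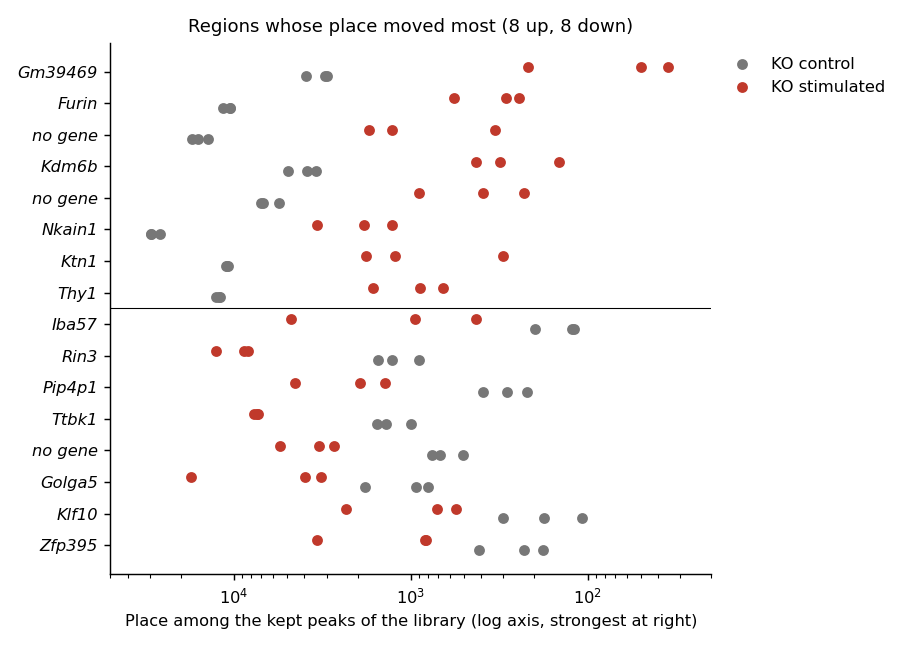
Place (rank) of each region among the kept peaks of each library, on a log axis with the strongest at right, for the 8 regions that rose most (above the line) and the 8 that fell most (below it). Points are single libraries, grey for KO control and red for KO stimulated; near Furin the stimulated libraries lie at places 243 to 570.5 and the controls at 10476.5 to 11558.5.

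Ifng, the gene of interferon gamma, changed over a wide stretch. Of its 16 regions 11 were constant, and 9 of these rose while none fell. The region covering the gene (chr10:118439835-118449448) went from places 8052, 8319.5 and 9301.5 to 831, 1183 and 1657.5 (log2 difference 2.86 ± 0.32 SE, adjusted p = 0.00119). Regions 33.0 kb below the gene (2.49 ± 0.30 SE, adjusted p = 0.00144) and 39.9 kb above it (2.45 ± 0.21 SE, adjusted p = 0.000953) moved nearly as far. Of the 9 regions, 6 passed in each of the 6 fits that left out 1 library. The constant regions 20.6 kb below and 22.4 kb above the gene had log2 differences of −0.08 ± 0.15 and −0.20 ± 0.20 SE and did not pass. One region was gained, 5.3 kb beyond the upper end of the gene (chr10:118451240-118452598), at places 6869, 10888 and 11837.5 with no deposited peak in any KO control library. In wild-type cells the region over the gene rose by 3.68 on the same scale. Il22, a neighbouring cytokine gene named after its values were seen, had 1 gained region of 2, again with no KO control peak.

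Other secreted signals changed in both directions. The promoter regions named from here on were chosen after their values were seen, as were Il12b, Il12rb2, Il18r1, Prdm1, Runx2, Runx3, Tcf7, Lef1 and Zc3h12d. The counts of each list stand against 5.19% gained and 4.65% lost among all regions, and 9.55% risen and 7.88% fallen among all constant ones. Promoter regions moved less often: of all 8020 constant regions over a promoter, 132 rose and 301 fell. The 22 cytokine genes listed, 20 of them with a region, had 53 constant regions, of which 15 rose and 5 fell. Of the 15, 9 were at Ifng alone. The median log2 difference was 0.17, against −0.09 for all constant regions, and 7 of 93 regions were gained and 3 lost. A promoter region of Il6 went from places 22549, 18265 and 21248.5 to 5900.5, 8148.5 and 8287 (1.49 ± 0.19 SE, adjusted p = 0.00164). Its messenger RNA is a well known substrate of Regnase-1. Il12b, encoding a subunit of IL-12, had a single region, 9.3 kb from the gene, which was gained. Fasl, the gene of Fas ligand, had 2 lost regions of 10. Of 21 constant regions at chemokine genes 7 rose and 3 fell. Ccl3, a chemokine that draws in leukocytes, had 4 constant regions and all 4 rose, its promoter region from 11750.5, 10660 and 11706.5 to 2312.5, 3213 and 3430.5 (1.95 ± 0.23 SE, adjusted p = 0.00136). The promoter region of Xcl1, a chemokine for cross-presenting dendritic cells, fell from 9847, 12194 and 12660 to 19037, 19743 and 19023.5 (−0.74 ± 0.15 SE, adjusted p = 0.0119), and passed in 4 of the 6 fits that left out 1 library, while a region 9.9 kb from Xcl1 rose by 0.77 ± 0.14 SE (adjusted p = 0.00678).

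The list of IL-12 and IL-18 receptor genes with JAK and STAT genes changed in both directions, mostly at genes other than the receptors of the 2 cytokines. Of 97 regions at 15 receptor, JAK and STAT genes 7 were gained (7.22%) and 3 lost (3.09%), and of 46 constant ones 10 rose (21.7%) and 4 fell (8.70%; median log2 difference 0.10). Without KO stimulated replicate 1 the lost count was 5. Stat4, the main transducer of IL-12, had 2 gained regions of 13, Stat5b 2 of 13 and Il1rl1, the IL-33 receptor next to the IL-18 receptor genes, 2 of 7. Jak1 had 2 lost regions of 21. Il12rb2, an IL-12 receptor subunit gene, had 1 lost region of 9 and none gained, and 1 of its 6 constant regions rose. It was the only IL-12 or IL-18 receptor gene on the list with a gained or lost region. None of the 3 constant regions of Il18r1 rose or fell. The promoter region of Il18rap, an IL-18 receptor subunit, went from 16363.5, 15315 and 15942.5 to 2272.5, 6001.5 and 6416 (1.84 ± 0.36 SE, adjusted p = 0.0101, passing in 4 of 6 fits that left out 1 library). In the MyD88 and NF-kB pathway 7 of 132 regions were gained, 5.30% against 5.19% of all regions, and 2 lost (1.52%), and 14 of 72 constant regions rose (19.4%) and 4 fell (5.56%); without KO stimulated replicate 1 the gained count was 12. Nfkb1, an NF-kB subunit, had 2 of each among 23. The promoter region of Nfkbia, the inhibitor that holds NF-kB in the cytoplasm, rose (1.88 ± 0.34 SE, adjusted p = 0.00667).

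Signalling brakes had 7 gained and 5 lost regions of 88, and 7 of their 55 constant regions rose (12.7%) and 9 fell (16.4%; median log2 difference −0.19). Ptpn2, a phosphatase of JAK and STAT proteins, had 3 gained regions of 8, with calls of 2, 3 and 2 before and 6, 5 and 7 after stimulation. Cblb, a ubiquitin ligase gene, had 2 gained and 1 lost region of 13. The promoter region of Socs3, a feedback inhibitor of JAK-STAT signalling, rose (2.58 ± 0.67 SE, adjusted p = 0.029, passing in 3 of the 6 fits that left out 1 library), while another region of Socs3 was lost. Promoter regions of Dgkz, a diacylglycerol kinase gene (−1.28 ± 0.33 SE, adjusted p = 0.0273, 3 of 6 fits), and of Spry2, an inhibitor of growth factor signalling (−0.96 ± 0.20 SE, adjusted p = 0.0126, 4 of 6 fits), fell, while another region near Spry2 rose by 1.51 (adjusted p = 0.0362).

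At 43 genes of transcription factors of NK cells and lymphocytes, 33 of 410 regions were gained (8.05%) and 11 lost (2.68%), and 45 of 211 constant regions rose while 20 fell (median log2 difference 0.09). Without KO stimulated replicate 1 the counts were 37 and 15. A list named ubiquitous genes had a like share of gained regions, 8.16% of 49, with none lost. It is not a neutral reference, since the leukocyte gene Ptprc holds 19 of the 49 regions and 2 of the 4 gained ones. Foxp1 had 6 gained and 1 lost region of 39, and Runx1 1 gained and 2 lost of 25. Ahr, the aryl hydrocarbon receptor, and Zeb2, which drives late NK cell maturation, had 4 gained and no lost region each. Ahr calls went from 4, 3 and 3 to 7, 7 and 8 of 9 regions, and Zeb2 calls from 8, 6 and 6 to 12, 13 and 13 of 14. Prdm1, encoding Blimp-1, had 2 gained of 15 and Runx2 2 of 23. Of the 43 genes, 16 had gained regions only, 5 lost only and 3 both. Among the 5 were Tcf7 (1 lost region of 11) and Lef1 (2 of 9), factors of less differentiated lymphocytes. Runx3, a factor of NK and CD8 T cell maturation, was also among them, with 2 lost of 23. The list was not counted by stage of maturation. A region over an internal RefSeq start of Lef1 fell from places 5935.5, 5821.5 and 5482 to 19037, 11644.5 and 12682 (−1.30 ± 0.22 SE, adjusted p = 0.00514) and a region 34.5 kb from Tcf7 from 4141, 3889 and 4301.5 to 15006.5, 10586 and 11144.5 (−1.56 ± 0.21 SE, adjusted p = 0.002). Of the other constant regions of Lef1, 2 rose by 0.54 and 0.64, each passing in 1 of the 6 fits that left out 1 library. In the AP-1 family 6 of 90 regions were gained (6.67%) and 3 lost (3.33%), and 7 of 50 constant regions rose and 2 fell. Bach2, a repressor at AP-1-like sites, had 1 gained and 2 lost of 23, Batf 1 gained and 1 lost of 9, Jun 1 gained of 3 and Batf3 1 gained of 8. Promoter regions of Atf3 and Batf3 rose, by 1.71 ± 0.37 SE (adjusted p = 0.0149, 2 of 6 fits) and 1.66 ± 0.27 SE (adjusted p = 0.00425).

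At the 19 cytotoxic granule genes with a region, 6 of 66 regions were gained and 1 lost, and 3 of the 6 were at Gzmk, encoding granzyme K. All 3 of its regions were called in 0 of 3 KO control and 3 of 3 KO stimulated libraries, at places between 15006.5 and 32969, and each held a weaker deposited peak in 2 or 3 KO control libraries. Il7r, the IL-7 receptor gene, likewise had 2 regions, both gained, and Klrc1, encoding the inhibitory receptor NKG2A, had 2 gained of 4 with calls of 2 before and 4 after stimulation in every library. The promoter region of Il2ra, the high-affinity IL-2 receptor chain, rose from 11978.5, 11705 and 11957.5 to 1346.5, 3537.5 and 2672.5 (2.35 ± 0.34 SE, adjusted p = 0.00288). Cd27, a TNF receptor family marker of immature NK cells, had 2 regions and both were lost. Their KO control places were 27444.5, 30764 and 31840.5 for the one at the gene's upper end and 33562.5, 28124.5 and 25611 for the other. Wild-type control libraries called both in 3 of 3 and wild-type stimulated libraries in 0 of 3. Among NK lectin receptor genes 4 of 7 promoter regions rose and 1 fell, where 132 of all 8020 constant promoter regions rose and 301 fell. Those that rose were of the activating receptor gene Klrk1 (1.28 ± 0.35 SE, adjusted p = 0.0357), Klre1 (0.98 ± 0.19, 0.0097), Klrc2 (0.86 ± 0.25, 0.0425) and Klrc3 (0.79 ± 0.19, 0.0218). They passed in 2, 4, 2 and 3 of the 6 fits that left out 1 library. Another region of Klrk1 fell (−0.61, adjusted p = 0.0289). Of 13 promoter regions at homing genes 1 rose, that of Ccr2 (0.66 ± 0.16 SE, adjusted p = 0.0247, 2 of 6 fits). Promoter regions of Klrb1c, encoding NK1.1, and of the homing receptor genes Cxcr3 and Cxcr6 fell (−1.02 ± 0.21, −0.73 ± 0.19 and −0.72 ± 0.21 SE, adjusted p = 0.0126, 0.028 and 0.0444, passing in 4, 2 and 2 of 6 fits that left out 1 library). Ncr1, the gene of the NK receptor NKp46, had 1 lost region of 4, 36.8 kb away.

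RNA-decay genes and reported Regnase-1 targets had 17 risen and 3 fallen regions among 56 constant ones, 9 of the 17 at Ifng, and 7 gained and 5 lost of 101. The median log2 difference of the list was −0.06. Zc3h12c, a relative of the deleted gene, had 2 gained regions of 5, with calls of 1 in each KO control library and 3, 4 and 5 after stimulation. Zc3h12d, another relative, had a single region, which lies over its promoter and was lost, from places 30187.5, 25383 and 24879.5. Survival genes had 8 gained and 1 lost region of 95, led by Pmaip1, encoding the BH3-only protein NOXA, with 3 gained of 6, none with a KO control peak. Metabolic genes had 13 gained and 3 lost of 159, among them 2 gained of 5 at Hif1a, the oxygen-sensing factor. Chromatin regulators had 10 gained and 13 lost of 155, of which 7 lost ones were at Arid1b, while Tet2, a DNA demethylase gene, had 3 gained of 8 and Ezh2, the Polycomb methyltransferase gene, 2 of 7. Of their 78 constant regions 12 rose and 5 fell, with 5 of the risen and 1 of the fallen at Arid1b. Of the 4 gained regions on the list named ubiquitous genes, 2 lay at the leukocyte gene Ptprc and 2 at Ywhaz.

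**Figure D4:**
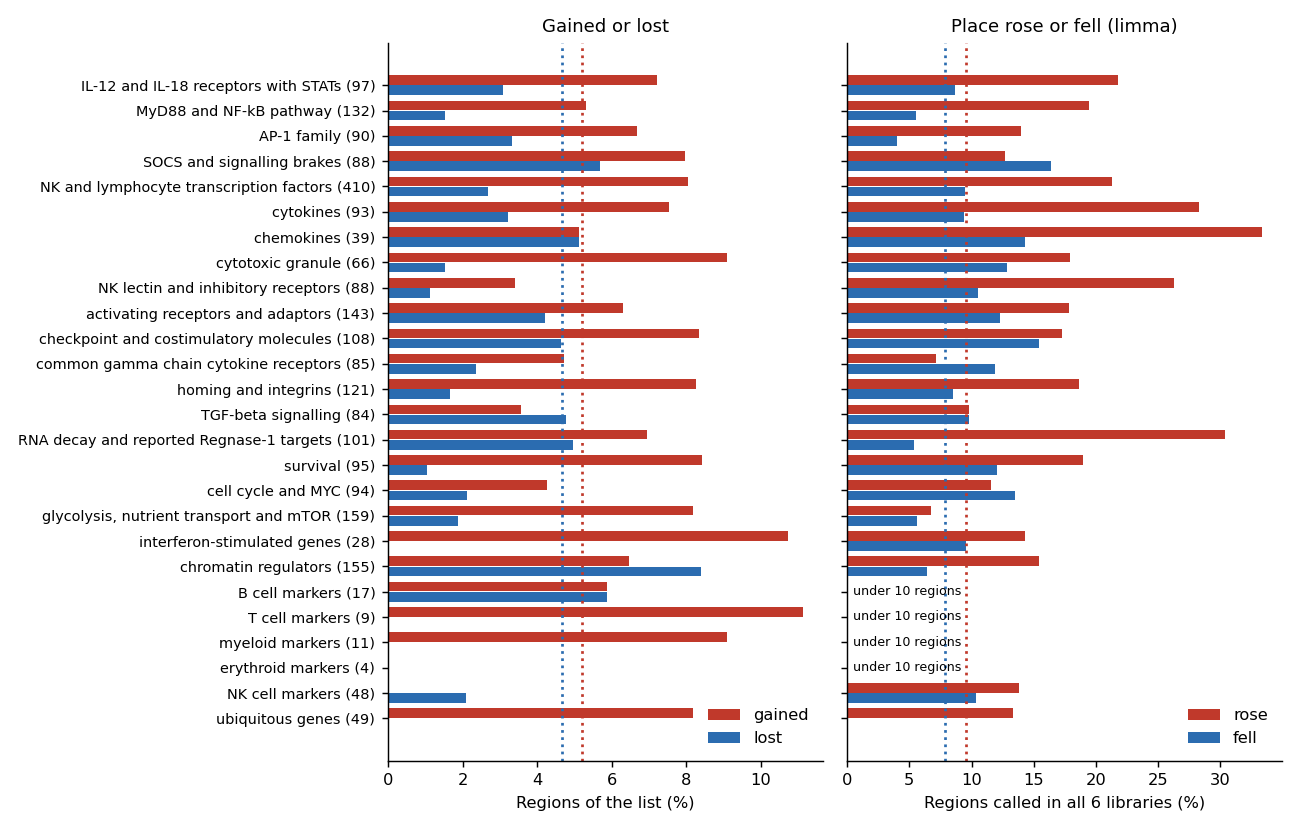
Left, share of each gene list's regions (number in brackets) that were gained (red) or lost (blue); right, share of its constant regions whose place rose or fell by limma, left blank for lists with under 10 constant regions. Dotted lines mark the shares over all regions, 5.19% gained and 4.65% lost at left and 9.55% risen and 7.88% fallen at right; shares of small lists rest on few regions.

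Promoters rarely opened or closed outright. Of 32851 RefSeq promoter windows, from 250 bases before to 50 after a transcription start (assembly GRCm38.p6, the assembly behind mm10), 65 (0.198%) lay in a gained and 148 (0.451%) in a lost region, and 11994 (36.5%) in a constant one. The 65 windows belong to 60 genes, 34 of them protein-coding. Among these, chosen after their values were seen, are Acod1, the itaconate-producing enzyme of activated myeloid cells, Clec4e, a receptor for microbial glycolipids, Tnip3, an inhibitor of NF-kB signalling, Oasl1, an interferon-stimulated gene, Slc7a11, a cystine transporter, Pik3cd, the PI3-kinase catalytic subunit of leukocytes, Nlrp1b, an inflammasome sensor, Procr, Timp1 and Mmp10. The promoter regions of Acod1, Tnip3 and Mmp10 had no deposited peak in any KO control library and took places 23131.5, 31275.5 and 23503, places 32969.5, 34262.5 and 22472.5, and places 15006.5, 27985.5 and 22819.5. The only region gained at Pik3cd lies inside the gene, away from both its ends (chr4:149663342-149664304). All 3 KO control libraries held a weaker deposited peak there (folds 4.43 to 5.86). Lost promoters of 91 coding genes include, again chosen by their values, those of Cd27, Zc3h12d, Hopx, Cx3cl1, Acp5, Elf3, Ablim1 and H2-Aa. Their KO control places were 27444.5, 30764 and 31840.5 at Cd27 and 22940, 16744.5 and 22069 at Ablim1.

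Motif letters in these windows were counted as a description. The 14 motifs searched, on both strands, were AP-1 (TGANTCA), NF-kB (GGAANTCCC), STAT (TTCNNNGAA), T-box (AGGTGTGA), Runx (TGTGGTT), ETS (ACAGGAAGT), Oct (ATGCAAAT), TCF/LEF (CTTTGAA), KLF (GGGTGTGG), IRF (GAANNGAAA), CTCF (CTNGTGGC), CREB (TGACGTCA), E-box (CACCTG) and EGR (GTGGGCG). AP-1 letters occurred in 16 of 65 gained windows (24.6%, 95% Wilson interval 15.8 to 36.3), belonging to 15 genes, against 4.05% of lost, 4.90% of constant, 9.62% of windows with no region and 7.81% of all windows. Over other ways of forming the regions the AP-1 share of gained windows ran from 18.99% to 44.4%, the last being 4 of 9 windows. The E-box letters occurred in 59 of 148 lost windows (39.9%, 32.3 to 47.9), against 13 of 65 gained windows, 17.03% of constant, 21.8% of windows with no region and 20.2% of all. EGR letters, common in constant promoters (15.3%), occurred in 1 of 65 gained and 22 of 148 lost windows. NF-kB letters were found in 2 and STAT letters in 9 of the 65 gained windows (3.08% and 13.8%), against 1.68% and 8.30% of all windows. No T-box letters were found in the 65 windows, where 1.28% of all windows hold them. Windows of neighbouring starts can overlap, so the intervals cover counting error only, and a match is a match of letters and not evidence of binding.

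To show these letters in their place, the 250 bases before the start are printed 5′ to 3′ on the gene's own strand, from RefSeq (GRCm38.p6), with any searched motif in capitals. Mmp10 and Procr carry the AP-1 letters 63 and 154 bases before the start, Tnip3 the NF-kB letters 53 before and Oasl1 the IRF letters 134 before. Among the lost promoters Cd27 holds none of the 14, and Acp5 holds the E-box letters 141 and the CTCF letters 177 bases before the start, both on the opposite strand.
Mmp10 (chr9:7502092-7502341, plus strand): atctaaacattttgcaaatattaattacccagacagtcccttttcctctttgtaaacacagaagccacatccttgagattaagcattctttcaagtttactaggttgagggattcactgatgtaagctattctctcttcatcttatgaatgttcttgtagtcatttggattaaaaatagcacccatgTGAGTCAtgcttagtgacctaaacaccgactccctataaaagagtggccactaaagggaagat
Procr (chr2:155750967-155751216, plus strand): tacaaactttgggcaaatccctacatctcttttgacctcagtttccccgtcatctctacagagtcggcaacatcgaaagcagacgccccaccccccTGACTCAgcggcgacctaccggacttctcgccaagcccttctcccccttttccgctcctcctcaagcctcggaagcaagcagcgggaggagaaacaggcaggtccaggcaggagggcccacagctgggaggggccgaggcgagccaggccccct
Tnip3 (chr6:65590148-65590397, plus strand): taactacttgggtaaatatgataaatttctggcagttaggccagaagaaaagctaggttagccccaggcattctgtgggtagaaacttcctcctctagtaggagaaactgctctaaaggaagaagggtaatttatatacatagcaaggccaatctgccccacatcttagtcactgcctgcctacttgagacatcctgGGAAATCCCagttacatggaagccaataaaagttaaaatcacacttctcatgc
Oasl1 (chr5:114922990-114923239, plus strand): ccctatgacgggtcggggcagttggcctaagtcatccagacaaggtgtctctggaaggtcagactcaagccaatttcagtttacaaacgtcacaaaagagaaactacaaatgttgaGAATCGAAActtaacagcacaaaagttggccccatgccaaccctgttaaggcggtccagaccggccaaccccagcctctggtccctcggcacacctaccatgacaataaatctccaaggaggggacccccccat
Cd27 (chr6:125237028-125237277, minus strand): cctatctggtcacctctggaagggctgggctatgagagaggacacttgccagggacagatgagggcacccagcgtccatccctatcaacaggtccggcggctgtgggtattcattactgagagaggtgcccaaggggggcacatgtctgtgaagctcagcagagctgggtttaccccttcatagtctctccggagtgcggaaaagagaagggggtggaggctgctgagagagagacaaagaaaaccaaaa
Acp5 (chr9:22131866-22132115, minus strand): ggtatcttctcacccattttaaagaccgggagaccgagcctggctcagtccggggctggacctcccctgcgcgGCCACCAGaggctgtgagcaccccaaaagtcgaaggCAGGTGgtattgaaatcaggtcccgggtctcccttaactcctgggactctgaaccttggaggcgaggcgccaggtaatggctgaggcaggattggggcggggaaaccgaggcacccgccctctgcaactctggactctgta

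**Figure D5:**
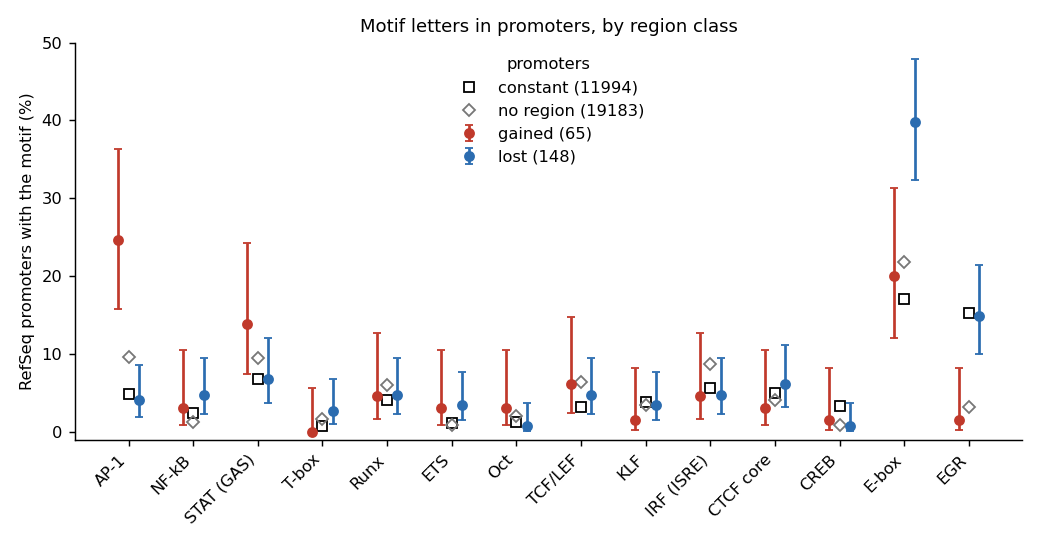
Percent of RefSeq promoter windows that hold each motif's letters, for windows in gained (red) and lost (blue) regions with 95% Wilson intervals, and in constant regions (open squares) or no region (grey diamonds). The AP-1 share of gained windows (24.6%) and the E-box share of lost windows (39.9%) lie above the other classes.

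MicroRNA genes were examined by distance, since the peaks carry no names, and those named were chosen after their values were seen. Of 1005 hairpins in the RefSeq table, 32 (3.18%) had a gained and 37 (3.68%) a lost region within 10 kb, and 556 had any region there. A gained region lay 1.97 kb from Mir155, the gene of miR-155, an activation-induced microRNA of lymphocytes (chr16:84716176-84719884, KO stimulated places 13511.5, 20531 and 21530), and another 6 kb away (places 19037, 30389 and 30833). Another gained region lay 5.41 to 6.16 kb from the 6 hairpins of the miR-17-92 cluster, which promotes lymphocyte growth (chr14:115037160-115038262, places 12227.5, 22285 and 22153), with no deposited peak in any KO control library. These 6 hairpins share 1 region and are not independent. A lost region lay 2.22 kb from Mir34b and 2.75 kb from Mir34c, targets of p53 (places 27444.5, 33869.5 and 32457.5 in KO control libraries). The mature sequences of the microRNAs near gained regions are given with the seed, bases 2 to 8, in capitals, and show that miR-17 and miR-20a share a seed, as do miR-19a and miR-19b.
mmu-miR-155-5p: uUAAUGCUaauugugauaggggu
mmu-miR-17-5p: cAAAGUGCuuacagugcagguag
mmu-miR-20a-5p: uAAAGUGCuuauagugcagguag
mmu-miR-18a-5p: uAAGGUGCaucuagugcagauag
mmu-miR-19a-3p: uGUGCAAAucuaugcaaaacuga
mmu-miR-19b-3p: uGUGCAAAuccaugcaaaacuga
mmu-miR-92a-3p: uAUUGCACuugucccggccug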

How the data were processed

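ATAC-seq peak lists of 12 libraries, 3 per group, were used, 6 of them for the knockout comparison. Per the labels, each library was made from 100000 cells. Per the submitters' processing notes the tools used include MACS2 2.1.1.20160309, deepTools 3.4.2 and SAMtools 1.15.1, the aligner Bowtie2 2.3.4.1, the trimmer cutadapt 4.1 and FastQC 0.11.9, on build mm10; their settings, and any shift of reads for the transposase, are not given in the sources used here. The deposited lists give each peak a fold enrichment (a ratio), a −log10 p-value, a −log10 q-value and a score, all values of the authors' peak caller. The lists hold no read counts, so sequencing depth is unknown, and ranks and list lengths can move with it.

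Intervals with several summits were used once, on the 19 autosomes, X and Y, ranked by −log10 q, and each list was cut to the length of the shortest, that of KO stimulated replicate 1. Intervals overlapping by 1 bp were merged over the 12 libraries, and a region had to be called by 2 or more of them. Coordinates are 1-based. Genes, promoters and microRNAs came from RefSeq tables of GRCm38.p6 (21887 protein-coding genes, and 453 of 457 listed genes matched). Regions were assigned to the nearest gene within 50 kb. Motifs were searched in RefSeq promoters only, since no genome was used here. Places were tested with limma 3.58.1 in R 4.3.3 (trend and robust moderation) with Benjamini-Hochberg adjustment at 0.05. On simulated shifts of 200 of the 22611 knockout regions, this test recovered 14% at a log2 shift of 1 and 77% at a shift of 2. The simulation used independent noise and shifted fewer regions than passed in the data, so these rates need not hold there. Single values per library were tested with exact two-sided permutation tests.

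Same-numbered knockout libraries deviated together (correlations 0.199, 0.174 and 0.157, against −0.207 to 0.060 for differently numbered ones), so the numbers may pair the samples. The main fits and permutation tests did not use this pairing. A replicate block was fitted as an alternative, where 2038 of the 2160 risen and 1540 of the 1782 fallen regions passed again. Permutation within pairs cannot go below p = 0.25.

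Genes were named by a rule: the 12 with the most gained and no lost regions and the 12 with the reverse, up to 4 per list, the 10 gained and 6 lost regions of best median place with no peak in the other group, the 8 largest rises and falls in place, Zc3h12a and Ifng. Other names were chosen after their values were seen. The members and lists were chosen with earlier results of these data known. Alternatives varied the list length, ranking, overlap, interval form, merging, ties and libraries. RNA-seq of the same design was not analysed here.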

Additional observations from a re-analysis of the deposited data

Results flagged for a closer look

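One region was lost in knockout and gained in wild-type cells, the only one of the 45082 regions with opposite calls. It is 619 bp wide and lies 2.4 kb from Ceacam9 (chr7:16728556-16729174), a gene of the carcinoembryonic antigen family. Its places were 30972.5, 31500 and 31840.5 in the KO control libraries and 32377.5, 30255 and 34036.5 in the wild-type stimulated libraries. It was called in none of the other 6 libraries. Weaker deposited peaks lay there in KO stimulated replicates 2 and 3 (folds 3.62 and 4.51) and in wild-type control replicates 2 and 3 (folds 5.12 and 5.65). All called places were close to the end of the kept lists, and the difference between the genotypes was not tested.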

How the results depend on the processing

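With all deposited peaks 1411 regions were gained, 81.1% of them also in wild-type cells, 14.1% of lost regions were also lost there, and 23 promoters were gained. With lists cut to 50% of their kept length the counts were 1389 gained, 1151 lost and 12073 constant, 491 risen and 306 fallen, with 6.05% of gained and 17.55% of lost regions near a gene end and 72.1% and 61.1% shared with wild-type cells. With a −log10 q of at least 10 there were 722 gained regions (4.02% near a gene end and 88.5% shared), 12.7% of lost regions near a gene end and 15.6% shared, 9 gained and 233 lost promoters, and 44.4% of gained promoters with AP-1 letters. A call that covered 50% of a region gave 13641 constant regions, 17.2% of lost regions near a gene end, shared shares of 64.8% and 32.3%, and 365 lost promoters. Summit windows gave 5.87% of gained regions near a gene end and 66.2% shared. Without KO stimulated replicate 1 and with longer lists the shared shares were 66.1% and 39.2%. Causes of these shifts were not tested.

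Leaving out 1 library gave 2545 to 3231 gained, 2550 to 2891 lost and 22817 to 24613 constant regions, 1014 to 3880 risen and 577 to 4914 fallen ones, 74 to 94 gained and 171 to 240 lost promoters, AP-1 shares of 20.2% to 26.9%, shares near a gene end of 4.93% to 5.66% (gained) and 10.3% to 12.3% (lost), and shared shares of 60.0% to 67.5% and 36.4% to 45.03%. The list length difference ranged from −12084 to −2487, and the cross-genotype call differences from 2313 to 2784 and from 1862 to 1901.

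Among 159 listed or named genes with unequal gained and lost counts, gained minus lost changed sign at 12 and came to 0 at 81 with lists cut to 50%, at 13 and 56 with a −log10 q of at least 10, at 7 and 59 with all deposited peaks, at 7 and 39 with 50% cover and at 11 and 37 without KO stimulated replicate 1 and with longer lists. Of the genes named, it changed sign at Stat5b, Cd28 and Oasl1 (−1 each), Jak1 (1) and Bach2 (2) with lists cut to 50%, at Ankrd44, Foxp1, Runx2 and Cblb (−1 each) with a −log10 q of at least 10, at Jak1 (1) and Cblb (−1) with 50% cover and at Stat5b (−1) and Bach2 (1) with longer lists. In other settings at most 2 changed sign. With the replicate block 2278 regions rose and 1758 fell, the exact p was 0.5 for list length (difference −6925) and 0.25, the smallest possible, for the cross-genotype differences (2589 and 1876.67), and of the regions named with a place 1, a risen one at Lef1, no longer passed. The absence of read counts limits what the place of a weak peak can show.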

Other observations

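Lists of receptors and regulators not described above are given by their counts, beside 5.19% gained and 4.65% lost among all regions and 9.55% risen and 7.88% fallen among all constant ones. Genes of homing receptors and integrins had 10 gained and 2 lost of 121 regions. Among them were 2 gained of 6 at Itgb2, the shared beta chain of the leukocyte integrins, with 3 regions called in each KO control and 5 in each KO stimulated library, and 2 of 5 at Itgav, an integrin alpha chain. Checkpoint and costimulatory genes had 9 gained and 5 lost of 108, with 2 gained of 8 at Cd28, a costimulatory receptor gene. Activating receptors and adaptors had 9 gained and 6 lost of 143. NK lectin and inhibitory receptors had 3 gained and 1 lost of 88, and 10 of their 38 constant regions rose and 4 fell.

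Common gamma chain cytokine receptors had 4 gained and 2 lost of 85 regions, and 3 of their 42 constant regions rose while 5 fell. TGF-beta signalling genes had 3 gained and 4 lost of 84, with 4 risen and 4 fallen of 41. Cell cycle genes with MYC had 4 and 2 of 94, with 6 risen and 7 fallen of 52. Interferon-stimulated genes had 3 gained and none lost of 28, at Usp18, Oasl1 and Gbp3.

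For these 8 lists the counts of gained and lost regions were repeated without KO stimulated replicate 1, and not without any other library. Of them, 4 counts moved by over 1.5 times, to 5 gained and 4 lost at NK lectin and inhibitory receptors, 10 lost at activating receptors and adaptors and 4 lost at common gamma chain receptors.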
